A study of Homo sapiens with 8 samples.

Results

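The comparison described here is what TAK-981 added to venetoclax: KG1a cells given both drugs for 48 h were set against KG1a cells given venetoclax alone for 48 h. It was chosen by treatment label and uses 4 of the 8 RNA sequencing libraries of the study, 2 with both drugs and 2 with venetoclax alone. KG1a is an established human cell line from an acute myeloid leukemia, with the CD34 surface marker of blood stem and progenitor cells. TAK-981 was given at 5 µM, venetoclax at 1 µM, and all cells were grown in the same medium. The 2 TAK-981 libraries and the 2 vehicle (DMSO) libraries, also taken at 48 h, share no library with this comparison and were used to set the effect of TAK-981 without venetoclax beside it. All values come from 1 cell line, 1 dose of each drug and 1 time. Separate cultures are not named in any label for the libraries of 1 group, so p-values measure only how these libraries spread, and that spread may be technical.

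SUMO proteins are small proteins that are joined to lysines of other proteins by an activating enzyme (SAE1 with UBA2), a conjugating enzyme and ligases, and are removed by SENP proteases. Many SUMO targets are transcription factors and chromatin proteins, and SUMO on them is commonly tied to gene silencing. TAK-981 blocks the activating enzyme. Venetoclax binds BCL2, which holds back the pore-forming proteins BAX and BAK1 at the mitochondrion, and it is used in acute myeloid leukemia. The study's title frames its question as whether blocking SUMO attachment makes these leukemia cells more sensitive to venetoclax.

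Libraries held 13204588 to 26304900 counts, and levels are given as CPM, the number of counts a gene would have at a fixed library total, scaled over the 8 libraries by edgeR's TMM factors. CD34 lay between 1196 and 1519 CPM in the 4 libraries of the comparison, and the blood cell genes PTPRC, SPN, MYB and ERG were also high. FLT3 (at most 0.0761 CPM) and KIT (0.857 to 1.16 CPM), which many leukemias of this kind express, were near 0. The 2 venetoclax libraries stood apart from each other. Over 9858 genes of at least 5 CPM their median absolute difference was 0.243 on the log2 scale, against 0.0829 to 0.0949 within the other groups, and 151 genes differed over 2-fold between them, against 0, 1 and 3 in the other groups. Leaving out a combination library leaves this wide pair to set the spread, and leaving out a venetoclax library leaves the narrow pair. The number of calls moved strongly with the library left out, and the cause of those moves was not tested.

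Adding TAK-981 to venetoclax changed 2497 of 12276 genes tested (20.3%) at an adjusted p under 0.05 in edgeR's quasi-likelihood test. A gene past that threshold is called changed throughout, and every log2 fold change is the level with both drugs less the level with venetoclax unless TAK-981 alone is named. Called genes that rose numbered 1342 (10.9%), and 1155 (9.41%) fell. Rises were the larger changes: 932 called genes were over 2-fold higher and 241 were over 2-fold lower. Among the rises, 304 genes reached the filter on low counts only with both drugs, and 628 of the rises over 2-fold reached it in both groups. The median log2 fold change over all genes tested was 0.01. The groups did not overlap for any called gene, but this was also so for 8541 of all genes tested, 69.6%. Without venetoclax replicate 1 and 2 the calls numbered 4986 and 6761, and without combination replicate 1 and 2 they numbered 1053 and 799, with rises then at 70.3% and 75.8% of calls against 53.7% with all 4 libraries.

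Without venetoclax, TAK-981 raised 2037 of 12590 genes (16.2%) and lowered 2059 (16.4%) against vehicle. Of 12179 genes tested in both comparisons, 894 rose in both, which is 69% of the genes that rose with venetoclax present and 45.2% of those that rose without it. Falls in both numbered 788, which is 68.2% and 38.6%. Rises with venetoclax present had a median log2 fold change of 1.26, and the same genes had a median of 0.61 with TAK-981 alone. For falls the medians were -0.76 and -0.36. These medians are of genes selected for their change with venetoclax present, so a smaller value in the other comparison is in part set by that choice. Across genes, which are not independent replicates, the log2 fold changes of both comparisons had a Pearson correlation of 0.793 and a Spearman correlation of 0.651. Only 6 genes were called in opposite directions, 5 that rose and 1 that fell with venetoclax present, and they are described at the end.

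**Figure D1:**
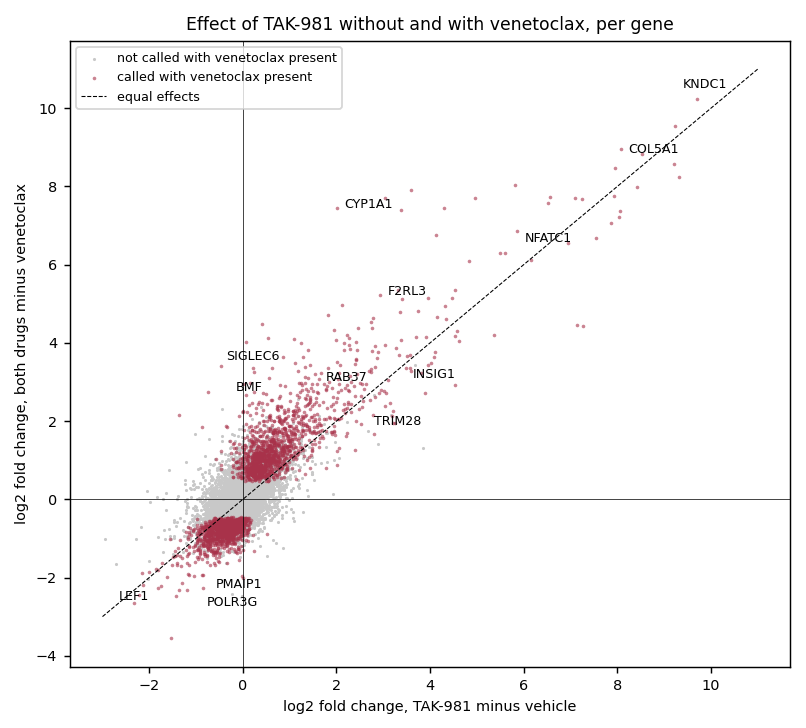
Each point is a gene tested in both comparisons, with the log2 fold change of TAK-981 against vehicle on the x axis and of both drugs against venetoclax on the y axis; red points were called with venetoclax present, and the dashed line marks equal effects. Large rises such as KNDC1, COL5A1 and NFATC1 lie near the line, while CYP1A1 (7.45 with venetoclax, 2.02 without), SIGLEC6, BMF and PMAIP1 lie away from it.

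The largest rises were of genes that these cells hardly transcribed under venetoclax. COL5A1, a fibrillar collagen chain (hg38 chr9:134641774-134844843), had 0 and 0.0779 CPM with venetoclax and 28.1 and 28.2 CPM with both drugs, and its log2 fold change was 8.97 (SE 0.43, adjusted p = 0.000531). In counts this was 1003 against 2, a ratio of 546 with an exact 95% interval of 151 to 4519. NFATC1, the calcium-regulated transcription factor of activated lymphocytes (chr18:79395856-79529325), had 0.761 and 0.623 CPM with venetoclax and 72.6 and 82.4 CPM with both drugs, a log2 fold change of 6.87 (SE 0.23, adjusted p = 0.000143). KNDC1, a guanine nucleotide exchange factor gene, had 0 counts with venetoclax and 274 with both drugs, at least 99.5-fold higher when 0 is set to a floor of 3 counts over the group. CUX2, a homeobox factor, went from 1 count to 238 (ratio 259, interval 46.1 to 10286), and SIGLEC15, an immune receptor of the sialic acid binding family, from 3 to 197 (ratio 71.6, interval 24.1 to 350.0). Intervals and floors cover counting error only. Of these genes only NFATC1 reached the filter on low counts under venetoclax as well. All 5 of these genes were also raised by TAK-981 without venetoclax, to 20.9 and 16.8 CPM for COL5A1 and to 87.5 and 103 CPM for NFATC1.

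The other large rises were of genes with varied products, and CYP1A1 (7.45) is described at the end. F2RL3, the thrombin receptor PAR4 (chr19:16888860-16892606), had 1.22 and 1.13 CPM with venetoclax and 35.6 and 49.9 CPM with both drugs, against 9.11 and 8.02 CPM with TAK-981 alone. Its log2 fold change was 5.23 (SE 0.28, adjusted p = 0.000894). UNC13A, a synaptic vesicle priming protein, rose by 7.69, and SMAD6, an inhibitor of BMP signalling, by 4.32. MYH15, a myosin heavy chain, rose by 4.20 and LGALS3BP, a secreted glycoprotein induced by interferon, by 4.07. CYP1A1, UNC13A, SMAD6, MYH15 and LGALS3BP reached the filter on low counts only with both drugs, the group where they were high. With venetoclax they had 0 and 3, 5 and 0, 8 and 19, 14 and 9, and 3 and 28 counts in that order. COL6A3, a collagen chain, rose by 3.70, CLEC4E, the myeloid receptor Mincle, by 3.67, SIPA1L2, a GTPase-activating protein gene, by 3.52 and TP53INP1, a p53-induced gene, by 3.43. These genes were chosen for groups that do not overlap, so their separation is no support. With any 1 of the 4 libraries left out, the smallest log2 fold change among them was 3.13, for TP53INP1 without venetoclax replicate 1.

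The largest falls were smaller than the largest rises. POLR3G, a subunit of RNA polymerase III found mostly in stem and tumour cells (chr5:90471748-90514553), had 73.8 and 46.2 CPM with venetoclax and 12.9 and 11 CPM with both drugs. It fell by 2.27 on the log2 scale (SE 0.26, adjusted p = 0.00567). LEF1, a nuclear effector of WNT signalling (chr4:108047545-108168956), had 97.3 and 80.9 CPM with venetoclax and 18.6 and 18.3 CPM with both drugs, and fell by 2.22 (SE 0.16, adjusted p = 0.00186). TAK-981 alone brought LEF1 to 22.3 and 20.3 CPM, from 71.9 and 73.5 CPM with vehicle. UNCX, a homeobox factor, fell by 2.27, NHS by 2.14 and NOG, a secreted BMP antagonist, by 2.0. OLMALINC, a long noncoding RNA, fell by 1.95, SMIM10 by 1.94, PIK3AP1, an adaptor of PI3 kinase, by 1.88, and GPT2, the mitochondrial alanine transaminase, by 1.80. STAMBPL1, a deubiquitinase, fell by 1.69 and SLC25A52, of the mitochondrial carrier family, by 1.64. FAM72D fell by 1.68, but it has near-identical paralogs among which reads could be shared or dropped, so its value is uncertain. None of these falls lost its call when 1 library was left out.

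**Figure D2:**
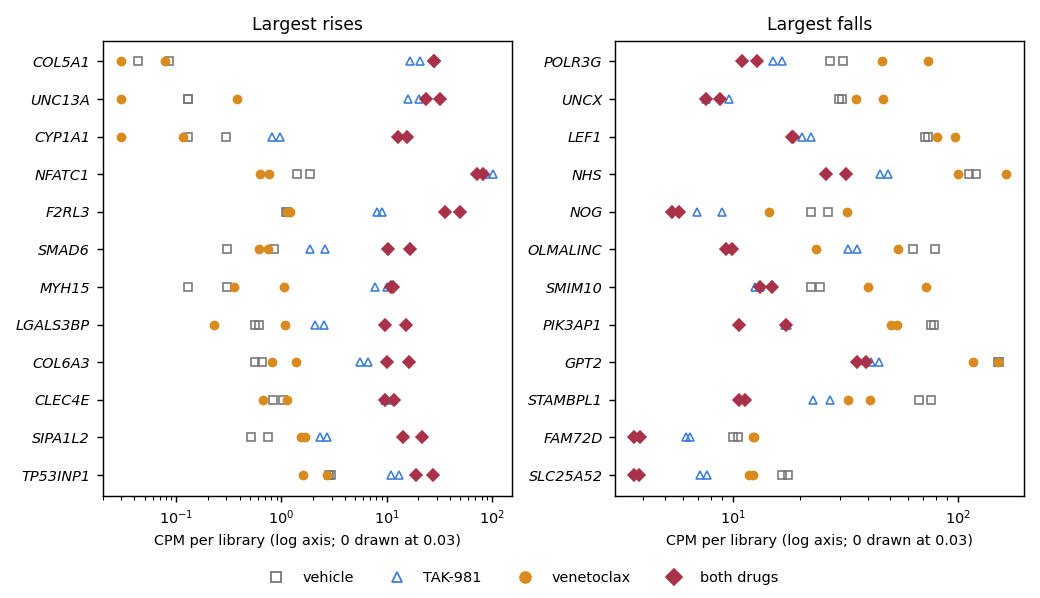
CPM of the 12 largest rises (left) and 12 largest falls (right) in each of the 8 libraries, on a log axis with 0 drawn at 0.03; open symbols are vehicle and TAK-981, filled circles venetoclax and filled diamonds both drugs. Genes were chosen so that both diamonds lie on 1 side of both circles, as for LEF1 at 18.6 and 18.3 CPM against 97.3 and 80.9 CPM.

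Among the genes of the pathways that the drugs act on, few SUMO genes were called. Of 30 genes for SUMO proteins, enzymes, proteases and SUMO-binding factors, all tested, 0 rose and 2 fell, against 10.9% and 9.41% of all genes, with a median log2 fold change of 0.00. A share of falls this near that of all genes is no result about the list. UBA2, the catalytic subunit of the enzyme that TAK-981 inhibits, had 586 and 525 CPM with venetoclax and 363 and 337 CPM with both drugs, and fell by 0.62 (SE 0.15, adjusted p = 0.0309). SENP1, a SUMO protease, had 61.0 and 49.0 CPM against 36.9 and 31.7 CPM and fell by 0.63. Neither kept its call without either combination library (adjusted p = 0.148 to 0.381), and without venetoclax replicate 1 and 2 the list had 3 and 4 rises and 5 and 12 falls. The log2 fold change of SAE1, the other subunit of that enzyme, was -0.29 and was not called. For PIAS3 it was 0.49 and for PIAS4 0.59, both SUMO ligases and also not called.

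In the BCL2 family, the drug target itself fell. BCL2 (chr18:63123346-63320128) had 236 and 242 CPM with venetoclax and 109 and 119 CPM with both drugs, and fell by 1.03 on the log2 scale (SE 0.13, adjusted p = 0.00809). TAK-981 alone gave 150 and 158 CPM against 289 and 298 CPM with vehicle, a fall of 0.92. MCL1, a survival protein tied to venetoclax resistance, had 201 and 213 CPM with venetoclax and 194 and 205 CPM with both drugs, a log2 fold change of -0.01 (SE 0.13) that was not called. BCL2L1, which encodes BCL-XL, had 35.4 and 53.8 CPM against 59.2 and 65.1 CPM, a value of 0.52 (SE 0.21, adjusted p = 0.126) that was not called. BCL2L2, which encodes BCL-W, rose by 0.86, from 16.8 and 16.3 CPM to 29.2 and 29.0 CPM. BCL2A1 had a value of 0.46, not called, and BCL2L10 stayed below the filter. Thus 1 of the 5 survival genes tested fell and 1 rose, against 9.41% and 10.9% of all genes. Counts this small are no result about the list.

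The BH3-only genes, whose products bind and neutralise the survival proteins, moved in both directions. PMAIP1, which encodes NOXA, a protein that binds MCL1 (chr18:59899948-59904306), had 40.0 and 43.9 CPM with venetoclax and 13.3 and 14.3 CPM with both drugs. It fell by 1.56 (SE 0.17, adjusted p = 0.00494), while TAK-981 alone left it at 33.9 and 36.0 CPM beside 32.9 and 41.3 CPM with vehicle. BMF (chr15:40087890-40108892) had 3.43 and 5.10 CPM with venetoclax and 24.7 and 22.1 CPM with both drugs, a log2 fold change of 2.47 (SE 0.25, adjusted p = 0.00451). With TAK-981 alone BMF had 11 and 9.03 CPM. BCL2L11, which encodes BIM, rose by 0.77. The difference between the effects of TAK-981 with and without venetoclax was -1.52 for PMAIP1 (adjusted p = 0.0598) and 2.02 for BMF (adjusted p = 0.0845), neither past the threshold. The values of BAX (0.42), BAK1 (0.90), BID (-0.37) and BAD (0.97) were not called, and BOK, BBC3, BIK and HRK stayed below the filter. BCL2L2 and BCL2L11 lost their calls without either combination library (adjusted p = 0.149 to 0.248), and BCL2, PMAIP1 and BMF kept theirs without any 1 of the 4 libraries.

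**Figure D3:**
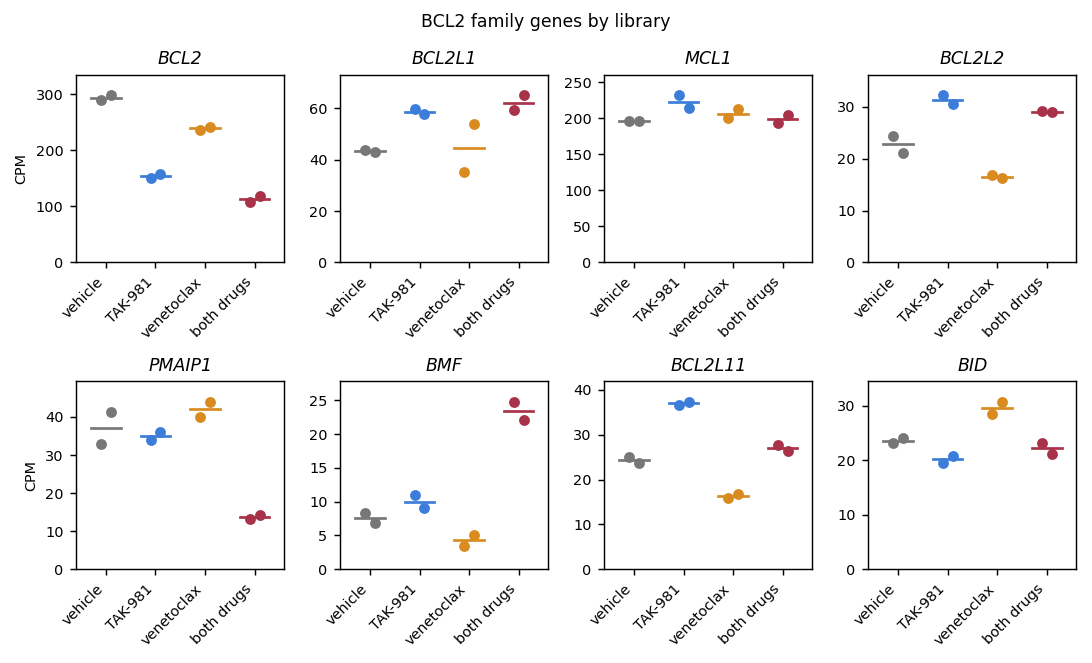
CPM of 8 BCL2 family genes in each library (points) with the mean of each group of 2 (lines), on linear axes from 0. BCL2 and PMAIP1 are lowest with both drugs, BMF is highest with both drugs, and the MCL1 points lie between 194 and 232 CPM in all 4 groups.

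Of 21 caspase and death regulator genes, 3 rose and 4 fell, against 10.9% and 9.41% of all genes, and the rises are near that share. BIRC5, which encodes survivin, fell by 0.81, and BIRC3, an inhibitor of apoptosis induced by NF-kB, by 0.73. CYCS, cytochrome c, fell by 0.83 from 300 and 347 CPM to 183 and 170 CPM. APAF1, the scaffold that cytochrome c activates, rose by 0.58. All of these calls were lost without combination replicate 2, and 0 rises and 0 falls of the list were then called, against 6 and 7 without venetoclax replicate 2.

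Genes of cell division had the highest share of falls among the 46 lists read. Of 57 mitosis genes, all tested, 44 fell and 0 rose, against 9.41% of all genes that fell, and the median log2 fold change was -0.95. Every one of the 57 values was below 0. Summed over the list, the level was 14987 and 11136 CPM with venetoclax, 7043 and 5649 CPM with both drugs, 10144 and 9893 CPM with vehicle and 7380 and 6220 CPM with TAK-981 alone. BUB1B, a spindle checkpoint kinase, had 267 and 191 CPM with venetoclax and 95.2 and 79.9 CPM with both drugs, and fell by 1.34 (SE 0.19, adjusted p = 0.0101). CDK1, the kinase that drives entry into mitosis, had 194 and 206 CPM against 100.1 and 80.4 CPM and fell by 1.10 (SE 0.16, adjusted p = 0.00935). AURKA, a centrosome kinase, fell by 1.07 and MAD2L1, another checkpoint protein, by 0.98. With 1 library left out, 53 and 50 members fell without venetoclax replicate 1 and 2, and 35 and 16 without combination replicate 1 and 2. MAD2L1 was among those lost without combination replicate 2 (adjusted p = 0.0773). In bulk RNA, fewer cells in division and less of these RNAs per cell cannot be told apart.

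DNA replication and repair genes fell as well, with smaller values. Of 45 replication genes 21 fell and 1 rose, with a median of -0.54. Of 44 repair genes 21 fell and 0 rose, with a median of -0.57. Of all genes tested 9.41% fell and 10.9% rose. GINS1, of the replicative helicase, fell by 0.96 from 115 and 120 CPM to 62.3 and 54.9 CPM, MCM10 by 0.88 and POLD3, a polymerase delta subunit, by 0.87. The 1 rise was of POLE, the catalytic subunit of polymerase epsilon, which had 184 and 165 CPM with venetoclax and 412 and 328 CPM with both drugs, a log2 fold change of 1.13 (SE 0.17, adjusted p = 0.0103). Among repair genes CHEK1, the replication checkpoint kinase, fell by 1.03 and POLQ, the polymerase of end joining, by 0.97. RAD54B fell by 0.92 and the exonuclease EXO1 by 0.86. Without combination replicate 2, 0 replication genes and 1 repair gene fell, and without combination replicate 1 it was 7 and 10. Without venetoclax replicate 1 and 2 the falls were 37 and 29 in replication and 33 and 33 in repair. TAK-981 without venetoclax lowered 41 of 45 replication genes, 37 of 44 repair genes and 48 of 57 mitosis genes, against 16.4% of all genes. Their medians were -0.66, -0.57 and -0.58.

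Promoters of these groups were searched for 3 textbook elements of cell cycle genes, and short stretches are shown so that their spacing can be seen. RefSeq promoter windows (GRCh38.p14, from 250 bases before to 50 after the start) were searched on both strands. The cell cycle homology region, TTTGAA, was in 34 of 51 matched mitosis promoters (66.7%) and in 28 of the 39 of genes that fell (71.8%), against 15.4% of 27305 promoters of all genes and 10.2% of those of tested genes. CCAAT was in 37 of 51 (72.5%) against 35.7% and 37.3%. The E2F forms TTTGGCG or TTTCCCG were in 20 of 39 matched replication promoters (51.3%), and in 13 of the 18 of genes that fell (72.2%), against 6.11% and 9.52%. The 5 stretches below are the 150 bases before the start of genes that fell, chosen because they hold the elements. In capitals are TTTGAA and CCAAT, or their reverse complements, in the mitosis genes and an E2F form, or its reverse complement, in the replication genes. A match is a description of letters and not a shown binding site.
ZWINT, a kinetochore gene (chr10:56361260-56361409, minus strand): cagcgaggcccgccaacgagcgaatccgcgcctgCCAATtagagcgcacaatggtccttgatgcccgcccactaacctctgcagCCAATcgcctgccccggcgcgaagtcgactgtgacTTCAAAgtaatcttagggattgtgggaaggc
KIF11, a spindle motor gene (chr10:92592980-92593129, plus strand): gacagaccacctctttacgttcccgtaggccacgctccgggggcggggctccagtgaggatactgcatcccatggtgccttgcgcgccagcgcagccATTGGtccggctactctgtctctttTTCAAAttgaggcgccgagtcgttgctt
KIF23, a cytokinesis motor gene (chr15:69414199-69414348, plus strand): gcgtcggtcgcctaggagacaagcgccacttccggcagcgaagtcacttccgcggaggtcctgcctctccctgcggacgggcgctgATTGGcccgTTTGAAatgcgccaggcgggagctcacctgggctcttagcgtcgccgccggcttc
POLA1, the catalytic subunit of polymerase alpha (chrX:24693768-24693917, plus strand): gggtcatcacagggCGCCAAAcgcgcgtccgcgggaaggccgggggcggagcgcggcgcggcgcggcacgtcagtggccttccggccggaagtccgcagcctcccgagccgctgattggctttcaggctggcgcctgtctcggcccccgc
RFC3, a clamp loader subunit (chr13:33817999-33818148, plus strand): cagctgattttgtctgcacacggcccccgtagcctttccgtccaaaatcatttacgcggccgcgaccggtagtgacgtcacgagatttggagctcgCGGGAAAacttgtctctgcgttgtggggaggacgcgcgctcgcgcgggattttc

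Falls outnumbered rises among the called genes that make ribosomes, act as chaperones, charge tRNAs and splice RNA, though most members of the last 3 lists were not called. Of 40 ribosome biogenesis genes 21 fell and 0 rose, against 9.41% of all genes that fell, with a median of -0.61. Their summed level was 18098 and 13055 CPM with venetoclax, 7927 and 8025 CPM with both drugs, and 7882 and 8651 CPM with vehicle. DDX21, a nucleolar helicase, had 857 and 746 CPM with venetoclax and 393 and 430 CPM with both drugs, beside 417 and 449 CPM with vehicle, and fell by 0.92 (SE 0.16, adjusted p = 0.0141). GAR1, of the box H/ACA ribonucleoproteins, fell by 0.93, NOP16 by 0.90 and UTP20 by 0.85. GAR1 had 32.1 and 30.9 CPM with both drugs beside 31.4 and 31.1 CPM with vehicle, and 67.0 and 57.5 CPM with venetoclax. Without combination replicate 1 and 2 the falls in the list numbered 7 each, with DDX21 not called in either case (adjusted p = 0.0991 and 0.053). GAR1 and UTP20 lost their calls without replicate 2 (adjusted p = 0.0779 and 0.156), and NOP16 without replicate 1 (adjusted p = 0.098).

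Of 25 heat shock and chaperonin genes tested 7 fell and 1 rose, against 9.41% and 10.9% of all genes that fell and rose. Their summed level was 21517 and 19100 CPM with venetoclax, 13768 and 15132 CPM with both drugs, and 11031 and 11729 CPM with vehicle. HSPD1, the mitochondrial chaperonin, had 1508 and 1416 CPM with venetoclax and 723 and 769 CPM with both drugs, and fell by 0.92. HSPB1, a small heat shock protein, rose by 1.74 (SE 0.21, adjusted p = 0.0067), from 5.33 and 6.23 CPM to 18.3 and 19.3 CPM. Of 20 cytosolic tRNA synthetase genes 7 fell and 1 rose. GARS, the glycine enzyme, fell by 0.74, and WARS, the tryptophan enzyme, which interferon gamma is known to induce, rose by 2.31 (SE 0.30, adjusted p = 0.00809), from 93.9 and 135 CPM to 407 and 692 CPM. Of 45 splicing genes 10 fell and 0 rose, among them the core snRNP genes SNRPD1 (-1.03) and SNRPF (-1.02). Without combination replicate 1 and 2 the falls numbered 1 and 0 for heat shock genes, 0 and 0 for synthetases and 2 and 2 for splicing genes, while the log2 fold changes stayed near their size, at -0.88 and -0.97 for HSPD1, -0.79 and -0.71 for GARS and -1.06 and -1.02 for SNRPD1. Without venetoclax replicate 1 and 2 they numbered 16 and 15, 13 and 9, and 21 and 27. In the unfolded protein response list, which also holds folding genes, 2 of 24 rose and 1 fell. These are not above the 10.9% and 9.41% of all genes and so are no result about the list. Few genes were called for cytosolic ribosomal proteins (1 of 75 rose, 0 fell), the respiratory chain (1 of 50 rose, 0 fell) and the proteasome (1 of 32 fell, 0 rose). Without venetoclax replicate 2 the rises and falls were 24 and 10, 16 and 11, and 6 and 9 in these 3 lists.

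Among called genes of lipid, sugar and amino acid metabolism falls outnumbered rises, and many members were not called. Of 27 cholesterol genes tested 11 fell, 2 rose and 14 were not called, against 9.41% and 10.9% of all genes that fell and rose, with a median of -0.44. ACAT2, the first enzyme of the pathway in the cytosol, fell by 1.19 (SE 0.19, adjusted p = 0.012), the squalene epoxidase SQLE by 1.00 and the squalene synthase FDFT1 by 0.93. INSIG1, which holds the sterol sensor in the endoplasmic reticulum (chr7:155297776-155310235), rose by 3.35 (SE 0.21, adjusted p = 0.00152), from 153 and 125 CPM with venetoclax to 1202 and 1540 CPM with both drugs. TAK-981 alone took INSIG1 to 2576 and 2454 CPM. Of 15 fatty acid and lipid genes 6 fell and 3 rose, and 1 of the 15 reached the filter only with both drugs. SCD, the desaturase that makes oleate, had 1335 and 1197 CPM against 458 and 389 CPM and fell by 1.53, ACSL3 fell by 1.15, and ACSS2, which makes acetyl-CoA from acetate, rose by 3.15. The sterol regulatory element TCACNCCAC, searched on both strands, was in 1 of 21 matched cholesterol promoters, against 1.15% of all promoters. Without combination replicate 1 and 2 the falls numbered 5 and 1 for cholesterol, beside 1 rise in each case, and 3 and 2 for fatty acid genes, and without venetoclax replicate 1 they numbered 18 for cholesterol. SQLE and FDFT1 lost their calls without combination replicate 2 (adjusted p = 0.0593 and 0.0837).

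Of 23 glycolysis genes 6 fell, 1 rose and 16 were not called. LDHA, lactate dehydrogenase A (chr11:18394388-18408425), had 2402 and 1403 CPM with venetoclax and 782 and 716 CPM with both drugs, and fell by 1.30 (SE 0.26, adjusted p = 0.0212). Its level with TAK-981 alone was 2294 and 2240 CPM beside 2177 and 2377 CPM with vehicle, a log2 fold change of 0.00. SLC2A3, a glucose transporter, rose by 1.61, from 142 and 95 CPM to 329 and 371 CPM. Of 23 ATF4 target genes tested 8 fell, 2 rose and 13 were not called, against 9.41% and 10.9% of all genes. PSAT1, of serine synthesis, fell by 1.35 and the cystine transporter SLC7A11 by 1.04, while DDIT3, which encodes CHOP, rose by 1.61, from 2.44 and 3.16 CPM to 8.14 and 8.66 CPM. Without combination replicate 1 and 2 the falls numbered 2 and 2 in glycolysis and 4 and 3 among ATF4 targets, and without venetoclax replicate 1 and 2 they numbered 9 and 14 in glycolysis. Without venetoclax replicate 1 and 2 the ATF4 list had 4 and 7 rises and 8 and 10 falls.

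**Figure D4:**
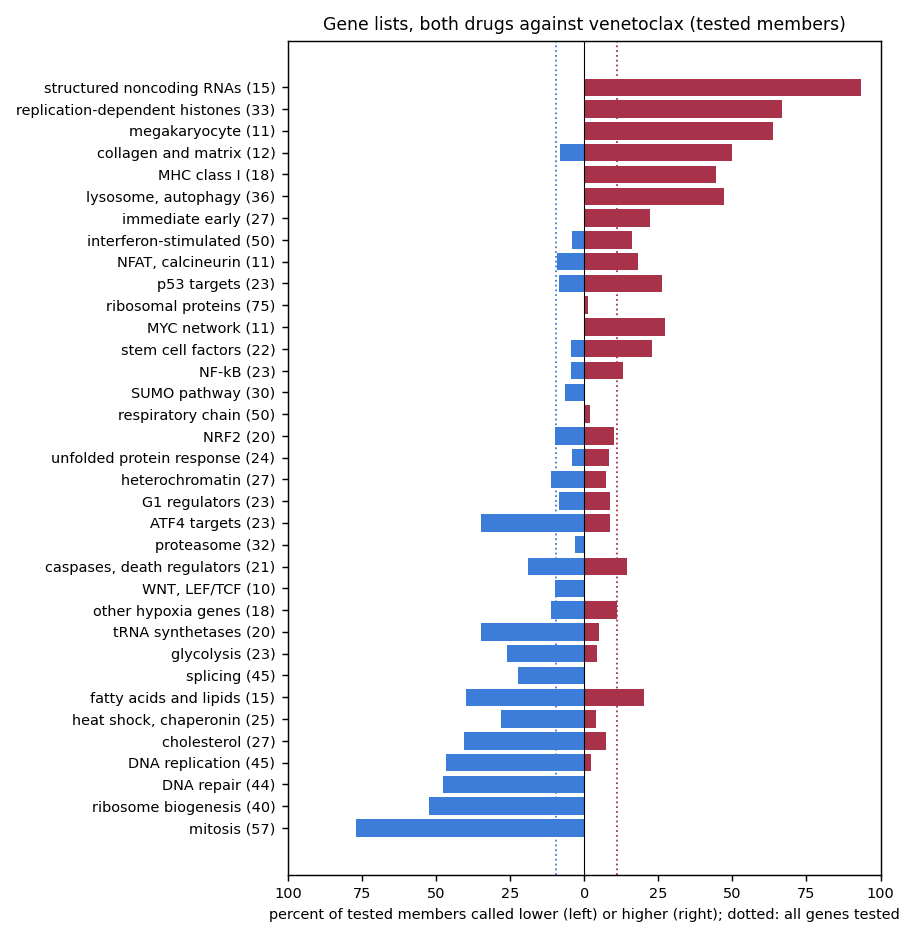
Percent of tested members called higher (right, red) or lower (left, blue) with both drugs against venetoclax, for each list with at least 10 tested members (number in brackets), in order of the median log2 fold change. Dotted lines mark the percentages over all genes tested, 10.9% higher and 9.41% lower; structured RNAs and histones are at the top and mitosis genes at the bottom.

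RNAs that lack poly(A) tails, or can lack them, were higher in both combination libraries. Summed over 59 replication-dependent histone genes, the level was 32.6 and 46.7 CPM with venetoclax and 139 and 210 CPM with both drugs, beside 34.2 and 32.0 CPM with vehicle and 62.4 and 48.2 CPM with TAK-981 alone. Of 62 histone genes listed 33 were tested, and 20 of these reached the filter only with both drugs, so a count over the 33 is no support. Of the 13 that reached it under venetoclax 10 rose, against 10.9% of all genes. Without combination replicate 2, 13 of the tested histone genes rose, against 22 with all 4 libraries. HIST1H1C, a linker histone, had 2.89 and 2.80 CPM with venetoclax and 13.2 and 16.7 CPM with both drugs, a log2 fold change of 2.43 (SE 0.25, adjusted p = 0.00441). HIST1H4C, a core histone, went from 3.20 and 6.43 CPM to 24.3 and 35.6 CPM. The rise stood beside lower levels of DNA replication genes in the same libraries.

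Structured noncoding RNAs rose in the same libraries. Their summed level was 28.3 and 44.0 CPM with venetoclax, 176 and 341 CPM with both drugs, and 17.7 to 41.8 CPM in the vehicle and TAK-981 libraries. Of 15 tested (23 listed) 9 reached the filter only with both drugs, and of the other 6 5 rose, against 10.9% of all genes. RN7SK, which holds the elongation factor P-TEFb inactive (chr6:52995620-52995950), had 10.4 and 9.11 CPM with venetoclax and 56.7 and 91.4 CPM with both drugs, a log2 fold change of 2.97 (SE 0.26, adjusted p = 0.0035). RMRP, the RNA of RNase MRP, rose by 2.75, but it reached the filter only with both drugs (6 and 23 counts with venetoclax). RN7SL1, the signal recognition particle RNA, rose by 2.95, a call lost without either venetoclax library (adjusted p = 0.254 and 0.164). MALAT1, a long nuclear RNA without a standard poly(A) tail, rose by 1.5, from 5355 and 3753 CPM to 11460 and 13519 CPM. In its own list of 7 nuclear long noncoding RNAs tested the other 6 were not called, and 4 of the 7 values were above 0. Summed levels in combination replicate 2 were 341 CPM for structured RNAs and 210 CPM for histones, above the 176 and 139 CPM of replicate 1. The sources differ on the library method (ribosomal RNA depletion, or a low-input kit of a type that primes on poly(A)), which decides how such RNAs are captured, and its part in these values was not tested. Histone and 7SL genes have near-identical copies, so single-gene values are uncertain.

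Antigen presentation genes were among the rises. Of 18 MHC class I presentation genes tested, 2 reached the filter only with both drugs, and of the other 16 7 rose, against 10.9% of all genes. No tested member fell. HLA-B, a heavy chain that shows peptides to T cells (chr6:31353872-31357188), had 97.8 and 112 CPM with venetoclax and 436 and 589 CPM with both drugs, a log2 fold change of 2.33 (SE 0.19, adjusted p = 0.00337). HLA-C rose by 1.78 and HLA-E by 1.72. Their reads are similar to each other and to those of pseudogenes, so the split between them is uncertain. The summed level of the list was 2786 and 2917 CPM with venetoclax, 4541 and 5394 CPM with both drugs, 3535 and 3996 CPM with vehicle and 5126 and 5091 CPM with TAK-981 alone. Without 1 library the rises numbered 13 and 14 (venetoclax replicate 1 and 2) and 8 and 6 (combination replicate 1 and 2). No MHC class II gene of the 10 listed passed the filter.

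Interferon-stimulated genes moved unevenly. Of 50 tested 8 rose and 2 fell, against 10.9% and 9.41% of all genes. Of the 50, 4 reached the filter only with both drugs, and of the other 46 7 rose. In TAK-981 against vehicle 27 of 50 tested rose and 1 fell, against 16.2% and 16.4% of all genes. The median log2 fold change was 0.28 with venetoclax present and 0.33 without it. IFITM3, which blocks virus entry, rose by 1.30. CMPK2, a mitochondrial kinase, fell by 1.29 (SE 0.16, adjusted p = 0.00687), from 125 and 151 CPM to 57.7 and 51.8 CPM, and EIF2AK2, the kinase PKR, fell by 0.81, from 398 and 402 CPM to 223 and 218 CPM. The venetoclax libraries differed in this list: MX1 had 4.34 and 31.4 CPM and IFI44L 22.9 and 93.9 CPM, beside 5.67 and 9.46 CPM and 80.9 and 114 CPM with both drugs, so their values were not called. The log2 fold change of MX1 was -1.25 with all 4 libraries and 0.82 without venetoclax replicate 2. MX1, IFI44L and EIF2AK2 were named after their values were seen. Without venetoclax replicate 1 the list had 9 rises and 10 falls, without venetoclax replicate 2 it had 27 and 2, and without combination replicate 1 and 2 it had 9 and 1 and then 4 and 4. EIF2AK2 lost its call without either combination library (adjusted p = 0.0935 and 0.131).

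Of 36 lysosome and autophagy genes tested 17 rose and 0 fell, against 10.9% of all genes that rose, with a median of 0.69. CTSB, the protease cathepsin B, rose by 1.12 (SE 0.18, adjusted p = 0.012), from 33.6 and 41.1 CPM to 70.8 and 86.6 CPM. PSAP, the precursor of the saposins, had 102 and 153 CPM with venetoclax and 233 and 273 CPM with both drugs, and rose by 1.03. The sialidase NEU1 rose by 0.97 and the autophagy receptor SQSTM1 by 0.86. Without combination replicate 1 and 2 the rises numbered 5 and 3, and without venetoclax replicate 2 they numbered 29. NEU1 and SQSTM1 lost their calls without combination replicate 2 (adjusted p = 0.107 and 0.122). Of 23 NF-kB genes tested 3 rose and 1 fell, which for the rises is near the 10.9% of all genes and no result about the list, the rises being the noncanonical subunits NFKB2 (1.08) and RELB (1.17) and the inhibitor TNFAIP3 (0.57), and 0 were called without combination replicate 2, while 6 and 9 rose without venetoclax replicate 1 and 2.

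Of 23 p53 target genes tested 6 rose and 2 fell, against 10.9% and 9.41% of all genes. Beside TP53INP1 the rises included BTG2, an antiproliferative gene that is also an immediate early gene, by 1.95 (SE 0.20, adjusted p = 0.0045), from 15.2 and 17.8 CPM to 53.9 and 70.8 CPM, and TP53I3 by 1.72. PMAIP1, described above, was among the falls. The p53 list had 7 and 9 rises and 5 and 5 falls without venetoclax replicate 1 and 2, and 4 rises and 1 fall without either combination library. Immediate early genes rose in 6 of 27 tested and fell in 0, among them the AP-1 subunit JUND (0.78), which lost its call without either combination library, as 5 and 2 of the list then rose, against 10 without venetoclax replicate 2. In the MYC network MXD4, a repressor that pairs with MAX, rose by 2.09 (SE 0.30, adjusted p = 0.00941), from 7.69 and 14.5 CPM to 42.5 and 50.9 CPM. Of 27 heterochromatin genes tested 2 rose and 3 fell, near the 10.9% and 9.41% of all genes and so no result about the list. TRIM28, the corepressor KAP1 and a well known SUMO target, had 85.3 and 173 CPM with venetoclax and 648 and 638 CPM with both drugs, and rose by 2.35 (SE 0.32, adjusted p = 0.00872). TAK-981 alone took TRIM28 to 795 and 893 CPM from 151 and 138 CPM. The list had 1 and 1 rises and 1 and 0 falls without combination replicate 1 and 2, and 7 and 8 rises and 9 and 12 falls without venetoclax replicate 1 and 2.

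Several genes of differentiated blood lineages rose. Of 24 myeloid differentiation genes 7 were tested, of which 5 reached the filter under venetoclax. Of those 5, 3 rose, against 10.9% of all genes. ITGAM, the integrin CD11b, had 1.45 and 1.05 CPM with venetoclax and 8.32 and 7.72 CPM with both drugs, a log2 fold change of 2.76 (SE 0.29, adjusted p = 0.00451), and with TAK-981 alone it had 14.1 and 14.2 CPM. MRC1, the mannose receptor, rose by 4.14, but it reached the filter only with both drugs (4 and 17 counts with venetoclax). Of 11 megakaryocyte and platelet genes tested (16 listed) 9 reached the filter under venetoclax, and 6 of those rose, against 10.9% of all genes. SELP, P-selectin, had 4.72 and 4.28 CPM against 15 and 22.8 CPM and rose by 2.11, and F2R, the thrombin receptor PAR1, had 26.3 and 30.3 CPM against 95 and 93.9 CPM and rose by 1.78 (SE 0.15, adjusted p = 0.00337). CPA3, a mast cell protease, rose by 2.13 (SE 0.15, adjusted p = 0.00175), from 43.2 and 37.5 CPM to 163 and 178 CPM. GFI1, a transcriptional repressor, belongs to the list of stem cell factors and not to a lineage list. It rose by 1.90, from 18.6 and 27.2 CPM to 84.4 and 82.6 CPM. Of 22 stem cell factors tested 21 reached the filter under venetoclax, and 4 of those rose, against 10.9% of all genes. Among the 22 tested 1 fell, and their median was 0.09. Of 8 endothelial genes tested (12 listed) 6 reached the filter under venetoclax, and 3 of those rose, against 10.9% of all genes. Among the 8 tested 1 fell. ENG rose by 1.66. The receptor TIE1 rose by 4.14, from 0.0761 and 0.234 CPM, and reached the filter only with both drugs. Megakaryocyte rises numbered 4 without combination replicate 2, against 7 with all 4 libraries.

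Marker lists of cells that a cell line should lack were also read, and their part in these results was not tested. Summed levels of 17 T and NK cell genes were 115 and 107 CPM with venetoclax and 87.7 and 107 CPM with both drugs, and those of 10 B cell genes 9.82 and 9.04 CPM against 9.28 and 10.3 CPM. Of the 13 erythroid genes 7 had 0 counts in all 4 libraries, and only TFRC and EPOR passed the filter. The 9 stromal genes summed to 3.58 and 4.40 CPM with venetoclax and 14.8 and 16.5 CPM with both drugs, of which PDGFRA, a growth factor receptor, gave 10.0 and 13.1 CPM with both drugs, and 3 of the 9 had 0 counts. In the collagen and matrix list 6 of 12 tested rose and 1 fell. However, 4 of the 12 reached the filter only with both drugs, so a count over the 12 is no support. Of the 8 that reached it under venetoclax 3 rose, against 10.9% of all genes.

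Whether venetoclax altered the effect of TAK-981 was tested as the difference between both effects over the 8 libraries. Of 12843 genes 4 were called (0.0311%), all with the higher effect in the presence of venetoclax, and 2427 had an unadjusted p under 0.05. By limma-voom 9 genes were called and by DESeq2 300. SIGLEC6, a sialic acid binding receptor (chr19:51519525-51531856), had 7.51 and 8.49 CPM with vehicle, 4.64 and 7.06 CPM with TAK-981, 0.761 and 0.779 CPM with venetoclax and 6.54 and 9.54 CPM with both drugs. Its difference of effects was 3.81 on the log2 scale (SE 0.42, adjusted p = 0.0385). It was thus low with venetoclax alone and near the vehicle level with both drugs. RAB37, a small GTPase of secretory vesicles (chr17:74670578-74747335), had 51.3 and 57.3 CPM with vehicle, 168 and 164 CPM with TAK-981, 22.6 and 22.7 CPM with venetoclax and 175 and 197 CPM with both drugs, a difference of 1.42 (SE 0.15).

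MTSS1, which shapes membranes at the actin cortex (chr8:124550790-124728429), had 49.6 and 45.8 CPM with vehicle, 73.1 and 67.9 CPM with TAK-981, 44.0 and 43.7 CPM with venetoclax and 142 and 145 CPM with both drugs, a difference of 1.14 (SE 0.14). MIR4697HG, a noncoding RNA (chr11:133896438-133901601), had 69.9 and 62.9 CPM, 73.4 and 74.7 CPM, 32.1 and 27.0 CPM, and 83.0 and 83.5 CPM in the same order of groups, a difference of 1.34 (SE 0.16). All 4 genes were lowest with venetoclax alone, and RAB37, MTSS1 and MIR4697HG were highest with both drugs. MTSS1 and MIR4697HG had the same adjusted p, 0.0385, as SIGLEC6 and RAB37. Leaving out any single library with vehicle, TAK-981 or both drugs gave 0 calls, while 713 and 4440 were called without venetoclax replicate 1 and 2. The narrow count therefore depends on which library is present.

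**Figure D5:**
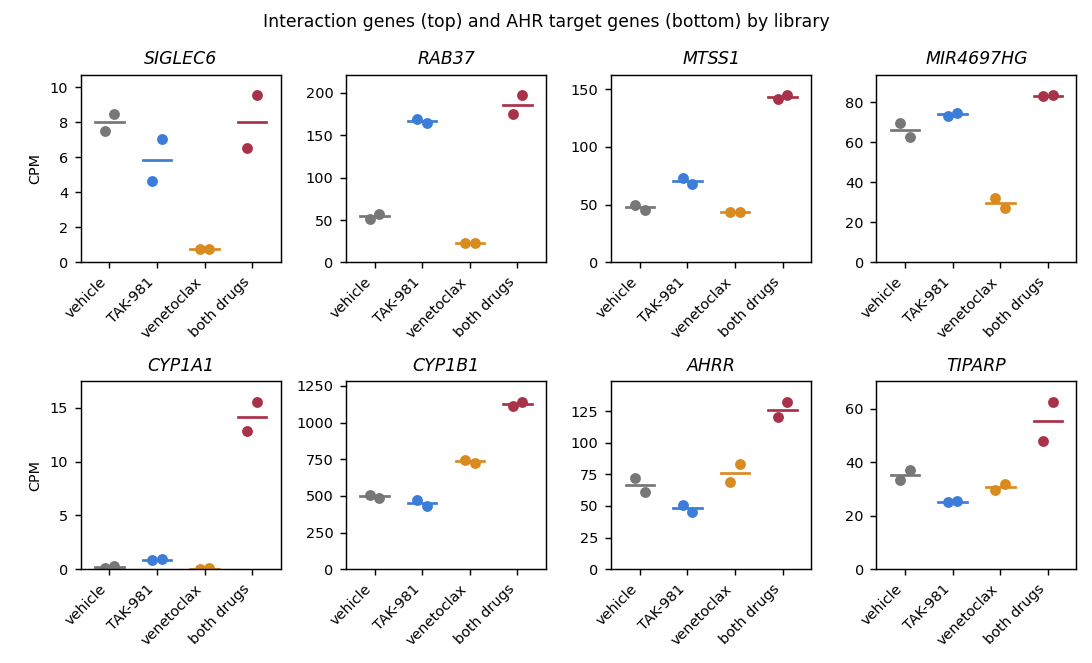
CPM per library (points) and group means (lines) on linear axes from 0, for the 4 genes whose TAK-981 effect was called different with venetoclax (top) and 4 target genes of the aryl hydrocarbon receptor (bottom). SIGLEC6 is at 0.761 and 0.779 CPM with venetoclax alone, and CYP1A1 reaches 12.8 and 15.5 CPM only with both drugs.

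CYP1A1 was among the largest rises and is a classical target of the aryl hydrocarbon receptor AHR. The targets AHRR, TIPARP and CYP1B1 were therefore read after its values were seen. They are not a full set of receptor targets, and AHRR and TIPARP are among the genes called in opposite directions. CYP1A1, a cytochrome P450 (chr15:74719542-74725610), had 0.130 and 0.299 CPM with vehicle, 0.816 and 0.962 CPM with TAK-981, 0 and 0.117 CPM with venetoclax and 12.8 and 15.5 CPM with both drugs. With both drugs it had 494 counts against 3 with venetoclax, a ratio of 179 (exact 95% interval 61.0 to 873). AHRR, the receptor's repressor, had 68.8 and 83.1 CPM with venetoclax and 120 and 132 CPM with both drugs, a rise of 0.77 (SE 0.15, adjusted p = 0.0196), while TAK-981 alone lowered it by 0.46. TIPARP rose by 0.89 with venetoclax present and was lowered by 0.48 by TAK-981 alone. CYP1B1 rose by 0.66, from 745 and 727 CPM to 1114 and 1139 CPM, and had a value of -0.13 with TAK-981 alone, not called. AHR itself fell by 0.80, from 213 and 156 CPM to 96.3 and 108 CPM. The differences between both effects were 5.41 for CYP1A1 (adjusted p = 0.0937), 1.20 for AHRR (0.0860), 1.33 for TIPARP (0.0860) and 0.75 for CYP1B1 (0.108), none past the threshold. The xenobiotic response element TNGCGTG was in 1 of 3 matched promoters of these genes, against 5.51% of all promoters. AHRR and TIPARP lost their calls without combination replicate 2 (adjusted p = 0.151 and 0.212), and CYP1B1 and AHR without either combination library (0.0641 to 0.245).

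The other genes called in opposite directions were 4, also named after their values were seen. HMGCS1, which makes the precursor of mevalonate, had 588 and 397 CPM with venetoclax and 282 and 234 CPM with both drugs and fell by 0.88, while TAK-981 alone raised it by 0.51. ITGAL, the integrin of LFA-1, rose by 0.83 from 327 and 306 CPM to 550 and 541 CPM and was lowered by 0.20 by TAK-981 alone. XYLT1, which starts glycosaminoglycan chains, rose by 0.70 and was lowered by 0.24, and TNFAIP3 rose by 0.57 and was lowered by 0.22. HMGCS1 lost its call without combination replicate 2 (adjusted p = 0.163), and ITGAL, XYLT1 and TNFAIP3 without either combination library (adjusted p = 0.0791 to 0.298). The difference of effects was not called for any of these 4 genes, with adjusted p-values of 0.0598 for ITGAL, 0.0979 for TNFAIP3, 0.0999 for XYLT1 and 0.108 for HMGCS1.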

How the data were processed

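RNA from KG1a cells was sequenced as single reads in 8 libraries, 2 per treatment. The authors deposited raw counts, 1 whole number per gene and library, for 25168 genes placed on hg38. Trimmomatic, STAR 2.6.0, HTSeq 0.11.1 and edgeR appear without a role, per the submitters' processing notes. Which annotation release, strand setting and rule for reads with several matches were used is not stated in these sources.

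The comparison was fitted on its own 4 libraries by edgeR 4.0.16 (limma 3.58.1, R 4.3.3), with TMM factors, filterByExpr, robust dispersion and the two-sided quasi-likelihood F test. P-values were adjusted by Benjamini-Hochberg over all genes tested, with a threshold of 0.05, and come from edgeR where no tool is given. TAK-981 against vehicle was fitted on its own 4 libraries, and the difference of effects on all 8. SE was taken as the size of the log2 fold change divided by the root of F, which is approximate. The fit was tested on simulated data with the same spread in every group, so the wider spread of the venetoclax pair was not covered.

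The comparison, its members and the 46 gene lists (1206 distinct genes, 1196 in the table) were chosen with earlier results of these data known. Genes were named by size (12 rises and 12 falls, called, not overlapping between groups and averaging 5 CPM or more), by list (up to 4 called members, smallest p first), by near-silence under venetoclax (up to 5 with at most 3 counts) and by the difference of effects (up to 6 per direction). All SUMO and BCL2 family genes came under the rule, some genes under it are not reported here, and symbols of unnamed or noncoding form were left out of the choice by size. The alternatives tried were size factors from DESeq2, low-count filters (none, or a mean of at least 1 CPM), DESeq2 1.42.0, limma-voom, a fit on all 8 libraries, a replicate block, and leaving out each library.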

Additional observations from a re-analysis of the deposited data

Results flagged for a closer look

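The effect of TAK-981 differed between cells with and without venetoclax in 4 genes by the test of the difference itself (edgeR, all 8 libraries). The log2 differences of effects were 3.81 for SIGLEC6, 1.42 for RAB37, 1.34 for MIR4697HG and 1.14 for MTSS1. All 4 share an adjusted p of 0.0385 and lose it when 1 vehicle, TAK-981 or combination library is left out. For SIGLEC6 and MIR4697HG the effect of TAK-981 without venetoclax was not called (-0.46 and 0.16), and for RAB37 and MTSS1 it was a rise of 1.62 and 0.57.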

How the results depend on the processing

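For both drugs against venetoclax, the 2497 calls became 4229 with no filter on low counts, 5086 with all 8 libraries in the fit, and 799 to 6761 with 1 library left out. Of the main calls 2494 were kept with no filter and 2494 with all 8 libraries, while 985 and 758 were kept without combination replicate 1 and 2, all in the same direction. DESeq2's size factors (2511), a mean of at least 1 CPM (2233), DESeq2 (2823) and limma-voom (2464) gave counts within 1.5 times. For the difference of effects, the 4 calls became 8 with DESeq2's size factors, 1098 with no filter, 300 with DESeq2, 9 with limma-voom, and 0 to 4440 with 1 library left out. The cause was not tested.

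The replicate number as a block gave 4112 and 24 calls. The groups share 2 numbers only, which no label ties to a culture or day, and the correlation of replicate deviations between venetoclax and combination was 0.157. Among the other pairs of groups it ran from -0.0438 (vehicle and venetoclax) to 0.366 (TAK-981 and venetoclax) and 0.391 (vehicle and combination).

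No called gene that is named changed sign under any alternative. Uncalled log2 fold changes that did were, with 1 library left out, SENP3 (-0.10 to 0.85), SENP5 (-0.0449 to 0.22), SENP7 (-0.17 to 0.29), PIAS1 (-0.53 to 0.0371), RANBP2 (-0.19 to 0.23), RNF4 (-0.16 to 0.17), SP100 (-0.0467 to 0.28), DAXX (-0.10 to 0.23), USPL1 (-0.0348 to 0.0702), TOPORS (-0.62 to 0.0165), ZMIZ1 (-0.00145 to 0.33), MCL1 (-0.0645 to 0.0379) and MX1 (-2.07 to 0.82). RANBP2 and USPL1 were -0.016 and -0.00774 with no filter and -0.0331 and -0.0222 with all 8 libraries. RNF4 and MCL1 were 0.015 and 0.0085 at a mean of at least 1 CPM, and RNF4 was 0.0087 with limma-voom and 0.0071 with the replicate block.

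Depth, at 13204588 counts in the smaller combination library, limits genes of a few counts, and 2 libraries per group limit the precision of every value.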
